A study of Mus musculus with 3 samples.

Results

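The neuronal nicotinic acetylcholine receptor genes were examined in the accessible peaks of dopaminergic neurons (DNs) of the ventral tegmental area (VTA). The members were 9 genes of 21755 protein-coding genes: *Chrna2*, *Chrna3*, *Chrna4*, *Chrna5*, *Chrna6*, *Chrna7*, *Chrnb2*, *Chrnb3* and *Chrnb4*. Every peak that overlapped the GENCODE M21 body of a member or lay within 50 kb of it was taken, which gave 51 distinct peaks, or 0.0922% of the 55326 peaks of the list. The peaks came from single-nucleus ATAC-seq (snATAC-seq), in which a transposase cuts accessible DNA in isolated nuclei, of dissected midbrain VTA from male wild-type C57Bl/6Nl mice aged 7 weeks in replicate 1 and 9 weeks in replicate 2. Nuclei were sorted for DNA content, not for a neuronal marker, and the authors chose the DN cluster by the gene score of *Th*. Both libraries were pooled in 1 peak list, and the bulk ATAC-seq of mES cells was not analysed here. Each peak is a 500-bp interval on mm10 without a score or read count, so from the list alone the depth behind a call is unknown, no spread between replicates could be computed, and a gene without a peak is one where none was called.

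Neuronal nicotinic receptors are pentameric cation channels that open on binding acetylcholine or nicotine. The α subunits α2, α3, α4 and α6 form the agonist-binding site together with β2 or β4, α7 can form a receptor on its own, and α5 and β3 are accessory subunits that join receptors made by the others. DNs of the VTA receive cholinergic input from the brainstem, and their nicotinic receptors are known for their part in the rewarding action of nicotine.

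Stretches of the peaks at and before the members' starts show the sequences that the results below refer to. Each is 150 bases of a DN peak, read from GRCm38 (mm10) and written 5′ to 3′ on the strand named, without annotated exon sequence. Within each peak, the stretch with the most kinds of searched motif, and then the most matches, was chosen. The matches in a stretch are therefore there by choice. Capitals mark matches, on either strand, to the short motifs GGGCGG (Sp factors), TAATCC (Otx and Pitx homeodomain factors), AAAGGTCA (Nr4a nuclear receptors), TGTTTAC (forkhead factors), CAGCTG (E-box) and TGANTCA (AP-1). The first set holds the peaks at the starts of members, which differed in base composition.
Chrna4 promoter, chr2:181039306-181039455, minus strand: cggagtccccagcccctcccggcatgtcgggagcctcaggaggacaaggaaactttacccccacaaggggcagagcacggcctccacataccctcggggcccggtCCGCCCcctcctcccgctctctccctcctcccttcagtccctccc
Chrna4 promoter, intron 1, chr2:181038546-181038695, minus strand: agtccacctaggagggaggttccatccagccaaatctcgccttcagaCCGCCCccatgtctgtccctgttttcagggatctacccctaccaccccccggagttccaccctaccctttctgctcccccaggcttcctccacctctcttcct
Chrna7 promoter, chr7:63212570-63212719, minus strand: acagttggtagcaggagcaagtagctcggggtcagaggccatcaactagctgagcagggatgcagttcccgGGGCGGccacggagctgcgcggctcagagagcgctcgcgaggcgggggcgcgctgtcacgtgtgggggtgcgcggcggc
Chrna3 promoter, chr9:55026570-55026719, minus strand: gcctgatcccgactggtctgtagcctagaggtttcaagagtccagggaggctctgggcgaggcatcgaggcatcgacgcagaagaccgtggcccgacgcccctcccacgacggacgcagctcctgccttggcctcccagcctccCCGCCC
Chrnb2 promoter, intron 1, chr3:89764081-89764230, minus strand: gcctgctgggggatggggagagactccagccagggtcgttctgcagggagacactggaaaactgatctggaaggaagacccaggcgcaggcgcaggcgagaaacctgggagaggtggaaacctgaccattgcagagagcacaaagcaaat
Chrnb3 promoter, chr8:27368561-27368710, plus strand: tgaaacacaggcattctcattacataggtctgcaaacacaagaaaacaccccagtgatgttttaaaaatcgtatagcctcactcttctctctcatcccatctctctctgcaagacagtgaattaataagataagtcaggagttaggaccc

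The second set holds the peaks nearest the starts of the genes that lacked a promoter peak and had a peak in an intron.
Chrna6 intron 1, chr8:27411879-27412028, minus strand: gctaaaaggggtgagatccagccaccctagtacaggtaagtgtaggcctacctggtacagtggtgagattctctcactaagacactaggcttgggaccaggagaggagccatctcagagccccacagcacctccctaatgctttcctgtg
Chrnb4 intron 1, chr9:55047194-55047343, minus strand: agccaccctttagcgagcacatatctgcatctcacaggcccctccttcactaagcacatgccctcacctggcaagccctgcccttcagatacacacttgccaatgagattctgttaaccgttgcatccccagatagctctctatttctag
Chrna5 intron 4, chr9:55003762-55003911, plus strand: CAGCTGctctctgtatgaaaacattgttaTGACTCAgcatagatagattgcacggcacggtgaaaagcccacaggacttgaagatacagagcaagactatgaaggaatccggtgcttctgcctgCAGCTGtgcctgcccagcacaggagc

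The third set holds both intergenic peaks before the start of *Chrna6*, each on the strand that reads AAAGGTCA, because their sequences were alike.
Chrna6, 13.8 kb before the start, chr8:27427622-27427771, plus strand: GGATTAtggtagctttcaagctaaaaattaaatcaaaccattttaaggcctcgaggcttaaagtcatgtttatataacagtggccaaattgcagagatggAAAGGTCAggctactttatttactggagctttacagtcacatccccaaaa
Chrna6, 30.3 kb before the start, chr8:27444097-27444246, minus strand: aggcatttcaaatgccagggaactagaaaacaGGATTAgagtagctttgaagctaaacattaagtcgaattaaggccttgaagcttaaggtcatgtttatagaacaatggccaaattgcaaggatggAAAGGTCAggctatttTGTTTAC

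All 9 members had at least 1 peak in the gene body or within 50 kb, compared with 83.2% of protein-coding genes. A peak overlapped the body of 8 members, all but *Chrna2*, compared with 63.8% of protein-coding genes. A promoter peak, with its centre within 1 kb of the start of a protein-coding transcript of the basic annotation, was found for 5 members, *Chrna3*, *Chrna4*, *Chrna7*, *Chrnb2* and *Chrnb3*, compared with 56.2% of protein-coding genes. No test was made of these counts, as 9 genes of 1 list, several of them neighbours, are not replicates. No promoter peak was called for *Chrna2*, *Chrna5*, *Chrna6* and *Chrnb4*.

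The 9 genes lie at 6 loci, and their windows cover 889 kb when overlapping windows are merged. *Chrnb3* and *Chrna6* lie tail to tail on chromosome 8 with 3.48 kb between them. On chromosome 9, *Chrna5* and *Chrna3* lie tail to tail with 2.33 kb between them, and *Chrnb4* follows 1.59 kb from *Chrna3* on the same strand as *Chrna3*. For this reason 13 of the 51 peaks (25.5%) fell in the windows of 2 or more members, and the values of these 5 genes are not independent of each other.

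**Figure D1:**
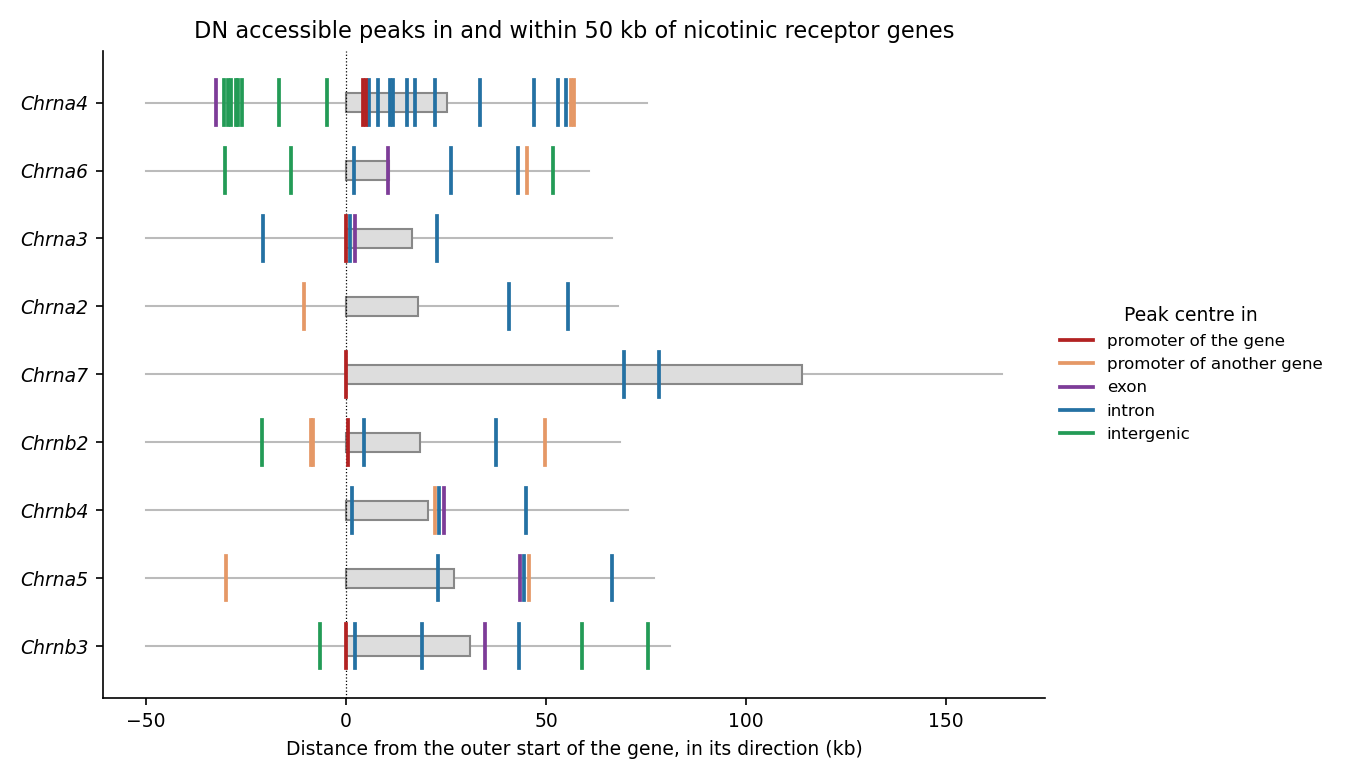
Positions of DN peaks (vertical lines, coloured by the place of the peak centre) along each gene, as distance in kb from the outer start of the gene in its direction of transcription. Grey boxes are gene bodies and grey lines the 50 kb on each side. *Chrna4* has 24 peaks, with 9 in its body, 9 before it and 6 after it, whereas *Chrna7*, the longest gene, has 3.

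Of the 51 peaks, 23 (45.1%) had their centre in an intron, 13 (25.5%) at a promoter, 12 (23.5%) between genes and 3 (5.88%) in an exon. Over the whole list the shares were 37.5% for introns, 30.1% for promoters, 26.6% for intergenic positions and 5.75% for exons. The promoter peaks comprised 6 at members and 7 at neighbouring genes, and the latter made up 13.7% of the 51 peaks (95% exact binomial confidence interval 5.7 to 26.3%, counting error only). The interval treats the peaks as independent, although they come from 6 loci and 24 of them from the *Chrna4* window. It measures no spread between loci or libraries. Of the 24 peaks that overlapped member gene bodies, 16 had their centre in an intron, 6 at a promoter and 2 in an exon.

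Among the α subunits that bind agonist, *Chrna4* had the most peaks. *Chrna4*, which encodes the α4 subunit of the high-affinity nicotine-binding receptor, spans chr2:181018380-181043546 on the minus strand. Its window held 24 peaks, with 9 overlapping the gene body, 9 in the 50 kb before it and 6 in the 50 kb after it. This corresponds to 192 peaks per Mb, at the 96.6th percentile of all protein-coding genes, with ties given their middle rank. The window was also rich in G and C, with a GC content of 50.3% at the 91.1st percentile, and the part of base composition in the peak density was not tested.

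A promoter peak of *Chrna4* was centred 33 bp from the nearest start and another in intron 1, 455 bp after the nearest start. The outer end of the annotated gene is the start of a transcript outside the basic annotation, and the nearest peak to it was 4.27 kb away. The other 7 peaks of the gene body had their centres in introns, 1 in intron 1 at 1.35 kb from the start, 1 in intron 2 at 3.47 kb, 2 in intron 4 at 6.47 and 7.36 kb, 2 in intron 5 at 10.9 and 12.8 kb, and 1 in intron 6 at 17.8 kb. Thus peaks were called from the start of the gene to its last intron. The *Chrna4* peaks at 1.35 and 10.9 kb also overlapped exons 2 and 5, by 95 and 246 bp.

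Before the start of *Chrna4*, 8 intergenic peaks were found. They were centred at 8.88, 21.1, 30.2, 31.1, 31.7, 32.9, 33.7 and 34.8 kb from the nearest start. When peaks with gaps of at most 5 kb were joined, the peaks of the gene body formed a run of 9 over 18.5 kb, and the 7 farthest before the start formed a run over 7.13 kb. Another run of 4 peaks over 4.42 kb lay at the start of *Col20a1*, a collagen gene that follows *Chrna4*. These runs held 20 of the 24 peaks, and the other members had runs of at most 3 peaks. The peak at 30.2 kb had the lowest GC content of the 51 peaks (31.8%) and was the only one with more than 50% of its bases in annotated repeats (78.6%).

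*Chrna6* encodes the α6 subunit, which in the midbrain is largely found in catecholaminergic neurons. The gene (chr8:27403212-27413944, minus strand) was the shortest member, at 10.7 kb, and no promoter peak was called for it. Its window held 8 peaks, or 72.2 per Mb, at the 76.9th percentile. The nearest peak to its start was centred 1.99 kb away in intron 1, at chr8:27411704-27412203, and covered the whole 140 bp of exon 2. The other peak of the gene body lay entirely within exon 6, the last exon, 10.5 kb from the start.

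The 2 intergenic peaks before *Chrna6*, at chr8:27427465-27427964 and chr8:27443995-27444494, were centred 13.8 and 30.3 kb before its start. The farther one lay 2.86 kb from the start of *Gm45861*, a predicted gene. These were the 2 peaks of the 51 with AAAGGTCA, and both also held TAATCC, as printed above. Alignment of the 1275 pairs of the 51 peaks, which was done after the motif matches had been seen, gave the highest score for this pair. The sequences were 77.8% identical over 374 aligned columns (291 identities) in opposite orientation, with an alignment score of 314 compared with 59 for the next pair. A search of the genome for further alignments of at least 100 bp found 1 other place for each peak, and this was the other peak. Thus the matches in the pair are matches in inverted copies of 1 sequence and are not independent. Whether reads of one copy could have been mapped to the other was not tested.

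AAAGGTCA and TAATCC were found together in 392 peaks of the whole list (0.709%). The farther peak also held TGTTTAC, and all 3 motifs were found together in 41 peaks (0.0741%). No test was made, as the combination was chosen after the sequences were seen.

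*Chrna3*, which encodes the α3 subunit of ganglionic receptors, spans chr9:55010111-55026562 on the minus strand and had 5 peaks in its window, or 42.9 per Mb. Its promoter peak was centred 92 bp before the start. A peak in intron 1 was centred 1.09 kb from the nearest start and held a forkhead and an AP-1 match. A peak in exon 2, at chr9:55024091-55024590, was centred 2.19 kb from the nearest start and covered the 140 bp of that exon and 45 bp of exon 3. These 3 peaks lay within 2.81 kb, and no peak was called in the rest of the gene.

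*Chrna2*, which encodes the α2 subunit, was the only member without a peak in its gene body (chr14:66135039-66152948, plus strand). The nearest peak was centred 10.5 kb before its outer start, at the promoter of *Ephx2*, which encodes an epoxide hydrolase. The other peaks of its window were centred 34.9 and 49.6 kb after the nearest start in introns of *Ptk2b*, which encodes a tyrosine kinase. The 3 peaks gave 25.4 per Mb, at the 43.2nd percentile.

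*Chrna7*, which encodes the subunit of homomeric α7 receptors, is the longest member, at 114 kb (chr7:63098692-63212569, minus strand). Its 3 peaks all overlapped the gene body, and none was called in the 50 kb on either side. A promoter peak was centred 104 bp before the start of its basic transcript. The others were centred 69.5 and 78.3 kb into the gene, both in intron 4. The resulting density of 14 peaks per Mb was the lowest of the 9 genes, at the 29.4th percentile.

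For the β subunits, *Chrnb2* had a promoter peak and *Chrnb4* did not. *Chrnb2* (chr3:89746195-89764632, minus strand) encodes the β2 subunit, the usual partner of α4, and its window held 7 peaks, or 59.1 per Mb, at the 71.4th percentile. Its promoter peak was centred in intron 1, 453 bp after the nearest start. A second peak of the gene was centred 4.59 kb from the nearest start, in intron 5. Of the other peaks, 3 were promoter peaks of neighbours, 1 at *Adar*, which encodes an RNA-editing enzyme, and 2 at *Ube2q1*, which encodes a ubiquitin-conjugating enzyme. The *Ube2q1* peaks were centred 8.13 and 8.73 kb before the nearest start of *Chrnb2* and also lay at the start of the long non-coding RNA *4632404H12Rik*. The remaining 2 peaks lay in an intron of *Adar* and between genes at 20.9 kb before *Chrnb2*.

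*Chrnb4* (chr9:55028154-55048779, minus strand) encodes the β4 subunit, the usual partner of α3. The only peak in its body was centred 1.51 kb from its start, in intron 1. No peak was called in the 50 kb before the gene. The other 4 peaks of its window were those of *Chrna3* and *Chrna5*, so the density of 41.5 per Mb mostly counted the peaks of its neighbours.

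For the accessory subunits, *Chrnb3* had a promoter peak and *Chrna5* did not. *Chrnb3* (chr8:27368711-27399730, plus strand) encodes the β3 subunit, which joins α6-containing receptors. Its window held 8 peaks, or 61.1 per Mb, which were the same 8 peaks as those of *Chrna6*. Its promoter peak was centred 3 bp from the nearest start and 68 bp from the outer start. Peaks in introns 1 and 3 were centred 2.12 and 18.8 kb from the nearest start. An intergenic peak lay 6.56 kb before the nearest start.

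*Chrna5* (chr9:54980880-55007779, plus strand) encodes the α5 subunit. The only peak in its body was centred 23 kb from the outer start, in intron 4, and held CAGCTG and AP-1 matches. In the 50 kb before the gene, a single peak lay 30.1 kb before the nearest start, at the promoters of *Psma4*, which encodes a proteasome subunit, and *AY074887*. Across the 3 genes on chromosome 9, 6 peaks were called in 168 kb, and 3 of them lay in or at *Chrna3*.

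**Figure D2:**
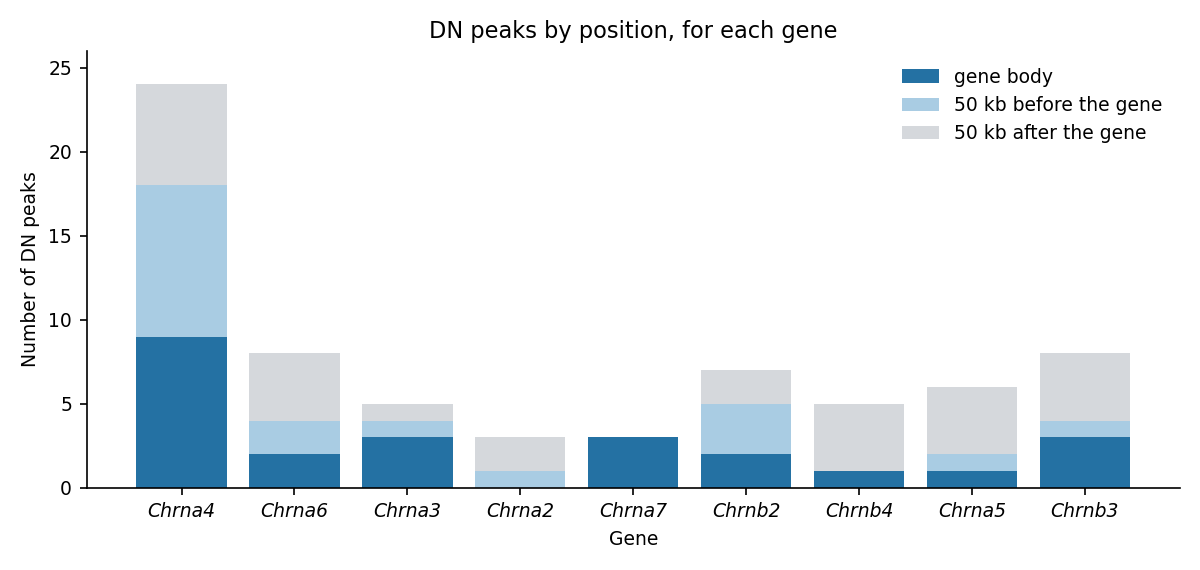
Number of DN peaks (y axis) for each gene (x axis), split into the gene body and the 50 kb before and after it. *Chrna4* has 9, 9 and 6 peaks, *Chrna7* has peaks only in its body and *Chrna2* none in its body. Peaks shared by neighbouring members are counted for each of them.

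The members with and without a promoter peak were next described by the sequence around the start, as 501 bp centred on the start of the transcript with most exons. CpG content was given as the ratio of CpG dinucleotides to the number that the C and G content would give. The starts of *Chrna3*, *Chrna4*, *Chrna7* and *Chrnb2* had ratios of 0.67, 0.88, 0.95 and 0.66, with GC contents of 63.7 to 74.1%. The starts without a promoter peak had ratios of 0.12 for *Chrna2*, 0.41 for *Chrna5*, 0.24 for *Chrna6* and 0.31 for *Chrnb4*. *Chrnb3* had a promoter peak with a ratio of 0.29 and a GC content of 43.7%. Thus 4 starts with a peak lay above all 4 without one, and *Chrnb3* lay among those without.

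Over all protein-coding genes, 86.9% of 11145 starts with a ratio of at least 0.6 had a peak within 1 kb, compared with 20% of 10523 starts below it. All 4 members above 0.6 and 1 of the 5 below it had such a peak. This comparison was added after the members' values had been seen. The *Chrnb3* promoter peak itself had a ratio of 0.37 and a GC content of 44.2%, compared with 0.80 and 72.2% for the *Chrna4* peak at 33 bp, 0.93 and 67.4% for *Chrna7* and 0.70 and 61.6% for *Chrna3*. The promoter peaks centred in intron 1 had lower ratios, with 0.21 and 58% for the *Chrna4* peak at 455 bp and 0.31 and 55.8% for *Chrnb2*, so that the ratio of the *Chrnb3* peak lay above both of these. The stretches printed above held an Sp match in both *Chrna4* peaks and in the *Chrna7* and *Chrna3* peaks and none in those of *Chrnb2* and *Chrnb3*, an order that did not follow the CpG ratio, as the *Chrna4* peak at 455 bp had the lowest ratio of the 6.

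Over the 51 peaks, the median GC content was 51.6% (range 31.8 to 74.8%), compared with 52% over all peaks. The median CpG ratio was 0.223, compared with 0.317 over all peaks. Motifs were searched on both strands of each peak, and a match is a description of letters and not of a bound factor. GGGCGG was found in 8 peaks (15.7%), compared with 32.3% of all peaks and 35.7% of 32851 RefSeq promoters (GRCm38). TGANTCA was found in 10 peaks (19.6%), compared with 12.3% of all peaks and 7.81% of promoters. TAATCC was found in 8 peaks (15.7% compared with 13.6%, and 7.06% of promoters) and AAAGGTCA in 2 (3.92% compared with 4%, and 1.51% of promoters). TGTTTAC and the homeodomain core TAATTA were each found in 3 peaks (5.88% compared with 7.22% and 7.27%, and 3.65% and 5.29% of promoters). The E-boxes CAGCTG and CAGATG were found in 17 (33.3%) and 19 peaks (37.3%), compared with 30.9% and 32.2% of all peaks and 16.3% and 17.2% of promoters. TGACGTCA, the cyclic AMP response element, was found in 2 peaks (3.92% compared with 1.51%, and 1.79% of promoters), neither of them in or at a member. None of the differences in share was tested.

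**Figure D3:**
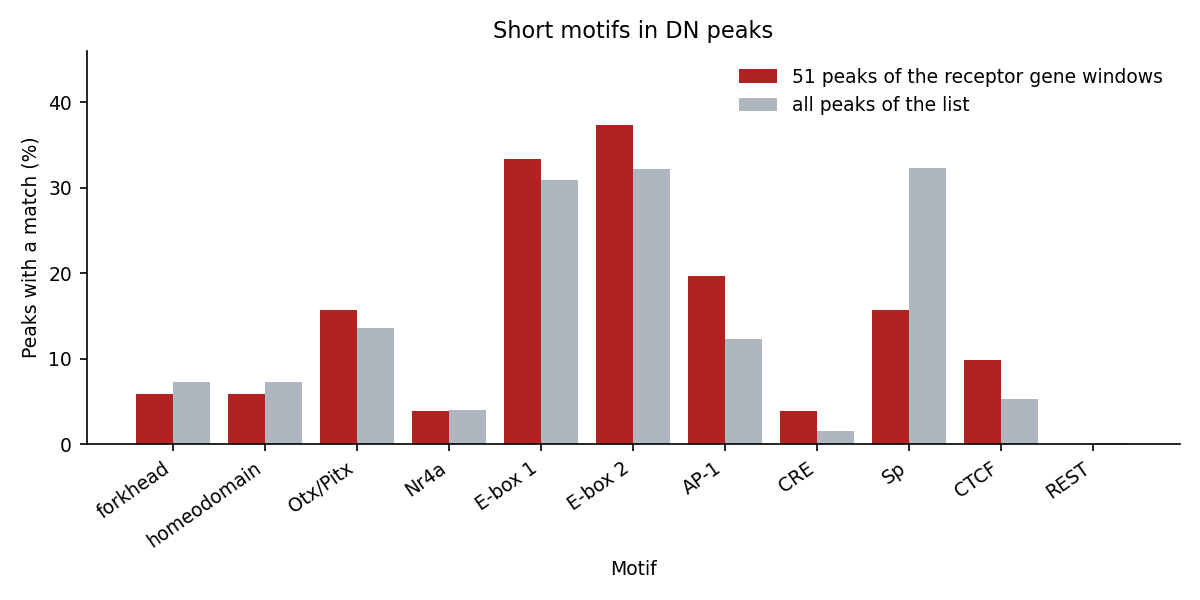
Share of peaks with a motif match (y axis, %) for the 51 peaks of the receptor gene windows (red) and all 55326 peaks (grey). E-box 1 and E-box 2 are the E-boxes found in 33.3% and 37.3% of the 51 peaks. The widest gap is at the Sp motif, with 15.7% compared with 32.3%.

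A CTCF consensus was matched in 5 of the 51 peaks (9.8%), compared with 5.25% of all peaks and 0.557% of promoters. Of these, 2 were intergenic peaks before *Chrna4*, at 21.1 and 32.9 kb, and 1 was the exon 2 peak of *Chrna3*. The others were a *Ube2q1* promoter peak and a *Ptk2b* intron peak. No REST consensus was matched, compared with 0.137% of all peaks and 0.0639% of promoters. Of the 9 peaks in the body of *Chrna4*, CAGATG was found in 4, all in introns.

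The members were then compared with gene lists of related function. The counts of genes with a promoter peak in each list stand beside 56.2% of all protein-coding genes, and none was tested. The median density of the 9 members was 47.3 peaks per Mb of window, compared with 31 over all protein-coding genes, and their median length was 20.6 kb compared with 17.4 kb. The difference depended on the distance taken around the genes, with medians of 98 and 33.8 peaks per Mb for 10 kb on each side and of 32.3 and 30.4 for 100 kb. In gene bodies alone, the medians were 96.7 and 29.2 peaks per Mb. The range was wide, from 14 for *Chrna7* to 192 for *Chrna4*.

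The muscle-type and hair-cell nicotinic subunits had a median of 64.8 peaks per Mb, above that of the neuronal subunits, but a promoter peak at 1 of 7 genes, the muscle β subunit gene *Chrnb1*. *Chrnb1* had 19 peaks in its window, and *Chrna1* and *Chrne* had 10 each. No peak was called in the body or at the promoter of *Chrnd*, *Chrng* and *Chrna10*. The ranges of peaks per Mb overlapped, from 9.47 to 170 for these genes and from 14 to 192 for the neuronal subunits.

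Of 7 genes for assembly factors and modulators of nicotinic receptors, 6 had a promoter peak, with a median of 53.6 peaks per Mb. These included *Ric3*, which encodes a chaperone of nicotinic receptors, with 11 peaks in its window, and *Lynx1* and *Ly6h*, which encode prototoxin-like modulators, with 10 and 11 peaks. *Lypd6b* had the most peaks, with 14. *Tmem35a*, which encodes the α7 chaperone NACHO, had no peak in its body or at its promoter, and the nearest was 12.9 kb from its start.

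Of the 5 muscarinic receptor genes, which encode the G-protein-coupled acetylcholine receptors, *Chrm2* and *Chrm3* had a promoter peak, and the median was 33.4 peaks per Mb. *Chrm4* and *Chrm5*, with 10 and 5 peaks in their windows, had none in the gene body or at the promoter. *Chrm5*, the muscarinic receptor best known from midbrain DNs, had its nearest peak 12.5 kb before the start. Of 5 genes for acetylcholine synthesis, transport and breakdown, only *Ache*, which encodes acetylcholinesterase, had a promoter peak. Its window held 14 peaks, with 7 in the gene body. No peak was called in the windows of *Slc5a7*, the choline transporter gene, and *Bche*, the butyrylcholinesterase gene. *Slc18a3*, the vesicular acetylcholine transporter gene, had no peak in its body or at its promoter.

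Among other receptor families, 9 of 16 GABA-A receptor genes and 9 of 11 AMPA and NMDA receptor genes had a promoter peak. The share over all protein-coding genes was 56.2%. Their median densities were 10.1 and 26.8 peaks per Mb, and their median lengths 91.1 and 184 kb. *Grin2d* had 37 peaks, the most of the glutamate receptor genes, and *Grin1*, *Grin2a* and *Grin3b* had 22 each, those of *Grin3b* all outside its body and promoter. The lists were not matched on length, and the 50 kb on each side make up more of the window of a short gene.

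The labelled cell type was set beside 8 genes of dopamine synthesis, storage and clearance and beside marker genes. The authors had picked the DN cluster by its gene score for *Th* and checked it with markers such as *Slc6a3*, so peaks at these genes are no independent check of the label. Promoter peaks were found for 7 of the 8 genes, all but *Maob*, with a median of 80.5 peaks per Mb, and *Ddc* had 21 peaks. The 4 DN markers *Th*, *Slc6a3*, *Slc18a2* and *Ddc* all had promoter peaks. Of 10 markers of oligodendrocytes, astrocytes, microglia, cholinergic and GABAergic neurons, none had a promoter peak by the same rule, although a peak lay 98 bp from the outer start of *Gfap*, which is not a start of the basic annotation. A peak overlapped the gene body of all 4 DN markers and of 5 of these 10 markers. In gene bodies the median was 221 peaks per Mb for the DN markers, compared with 0, 95.6, 26.7, 17.3 and 10.2 for the oligodendrocyte, astrocyte, microglial, cholinergic and GABAergic markers. In windows, which held 2 to 16 peaks for these 10 genes, the groups were closer, with a median of 84.6 peaks per Mb for the oligodendrocyte markers and 65.3 for the astrocyte markers, compared with 93.7 for the 4 DN markers, and 34.1, 32.2 and 15.9 for the microglial, cholinergic and GABAergic markers.

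**Figure D4:**
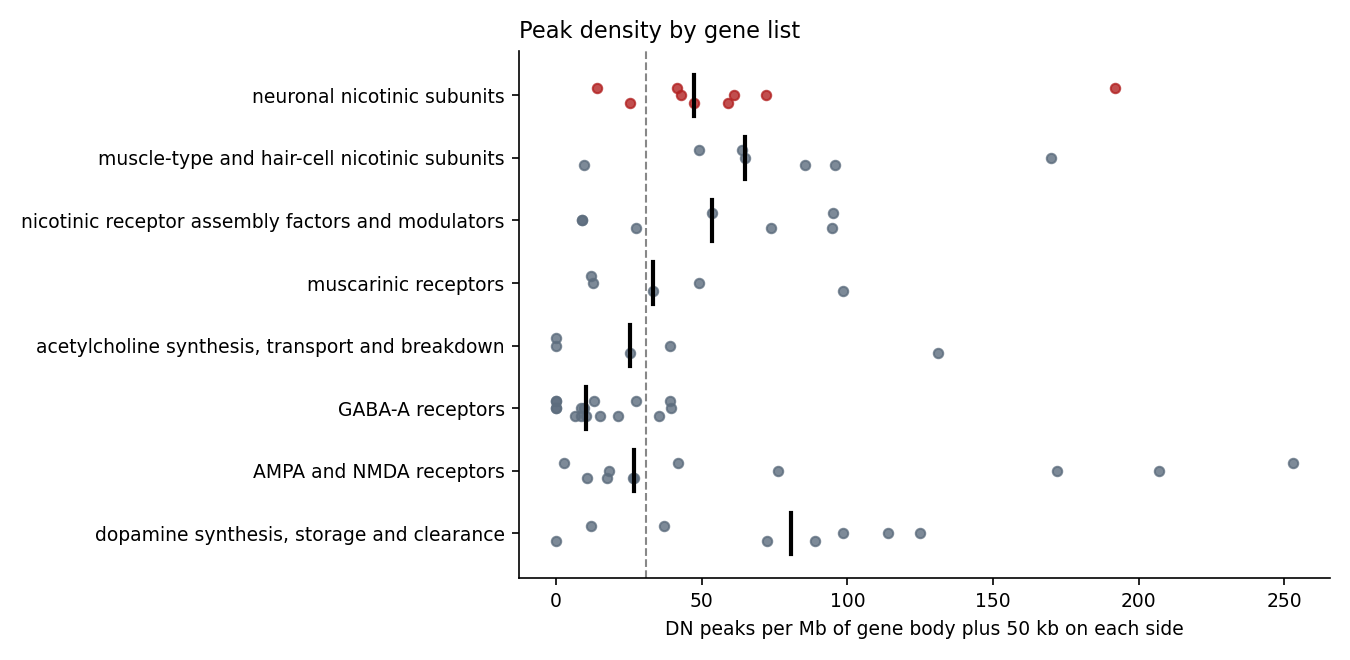
DN peaks per Mb of gene body plus 50 kb on each side (x axis) for each gene (points) of the neuronal nicotinic subunits (red) and of related lists (grey). Black bars are medians of lists and the dashed line is the median over all protein-coding genes (31). The neuronal nicotinic subunits range from 14 to 192, with a median of 47.3.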

How the data were processed

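snATAC-seq of the VTA of 2 mouse samples was analysed as a single deposited peak list, and the mES cell sample was not used here. According to the methods and the submitters' processing notes, the authors mapped reads to mm10 with Cell Ranger and used ArchR to remove doublets (a DNA content gate in the sort had also been set against them), to filter and cluster nuclei, to make pseudobulk replicates and to merge reproducible peaks; Bowtie is also listed. The deposited values are positions (chromosome, start, end) with no other unit. A filter on the share of nuclei is described, and whether it was applied to this list is not stated. Starts were read as counted from 0 and are printed counted from 1. If they were counted from 1, peaks would be 501 bp wide.

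Peaks were assigned to GENCODE M21 genes by an overlap of at least 1 bp, and to a promoter by a centre within 1 kb of a start. The place of a peak is that of its centre, taken in the order promoter, exon, intron, intergenic. Introns were numbered in the transcript with most exons. Sequence came from GRCm38, repeats from its soft-masking and promoters from RefSeq, whose table held starts of 6 members. Copies were searched with blastn 2.17.0, with soft-masked bases not used as seeds and weak alignments dropped by an E-value cutoff. Python 3.11.15, numpy 2.4.6, scipy 1.17.1 and matplotlib 3.10.9 were used, and interval counting and the motif search were tested on simulated data. The members and lists were chosen with earlier results of these data known. Genes named were all members, genes hosting or nearest to their peaks, and of each list those with most peaks per window and those without a peak in the body or at the promoter; *Chrm2*, *Lynx1* and *Gfap* were named after their values were seen. Some genes that this rule names are not reported here. No p-value was computed, because the 1 pooled list used here has no replicates.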

Additional observations from a re-analysis of the deposited data

How the results depend on the processing

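Of 29 values recomputed under alternatives, 26 stayed close to the values above (counts and densities within 1.5 times, the share of promoter peaks of neighbours within its interval) and 3 moved. With 10 kb on each side of the genes, the windows held 29 peaks with a median density of 98 peaks per Mb, and with 100 kb they held 83 peaks. These limits were wide. The share of promoter peaks of neighbours counted as close at 6.9% with 10 kb, compared with 13.7%. The median density counted as close at 32.3 peaks per Mb with 100 kb, compared with 47.3. A promoter of 2 kb gave 7 genes, adding *Chrna6* and *Chrnb4*, and the outer start alone gave 4, without *Chrna4*. Starts of the RefSeq table, an alternative chosen after seeing the data, gave 4 of the 6 genes held. Counting peaks by their centre gave 22 in gene bodies. No paired analysis was possible because the peak list used here pools both libraries, and for the same reason no library was left out. Reads and signal of the separate libraries were not analysed here, so all statements are limited to called peaks.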

Other observations

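Sequence likeness between the 51 peaks was described after the values above had been seen. Next to the pair before *Chrna6*, the highest alignment score was for the peaks over exon 2 of *Chrna6* and of *Chrna3*, genes for related α subunits on chromosomes 8 and 9. They were 71% identical over 107 aligned columns in the same orientation. In both genes the peak covered the whole 140 bp of exon 2.

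For 7 of the 51 peaks, the blastn search found another place in the genome that aligned over at least 100 bp. In 2 of them, those before *Chrna6*, that place overlapped a DN peak. Among the other 5, an intergenic peak before *Chrnb3* had 3 other places and a *Col20a1* intron peak had 7. For peaks in the body or at the promoter of a member, this search found no other place. It also missed the weaker alignment of the exon 2 peaks of *Chrna6* and *Chrna3* given above. More distant copies may therefore have been missed for other peaks.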
